A study of Saccharomyces cerevisiae with 18 samples.

Results

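Double-stranded cDNA (ds-cDNA) arrays compared the transcriptomes of EPY330 and EPY338, a pair of engineered Saccharomyces cerevisiae strains. These were 6 of the 18 arrays of the study, 3 per strain, and they were taken by their labeling method and strain. The other 12 arrays carried targets made from the same RNA by the direct random and the indirect methods. For each strain 3 colonies were precultured in SD-His-Met-Leu, a synthetic medium without histidine, methionine and leucine, and grown in 5 ml of the inducing medium YPG at 30°C for 24 h. RNA of the 3 cultures of a strain was pooled in equal amounts, so both strains shared medium, temperature and time, and strain cannot be told apart from culture pool. Each labeling began with 10 μg of this RNA and 4 μg of labeled ds-cDNA was hybridized per array. The genotypes of EPY330 and EPY338 are not given in the sources used here. Since the 3 arrays of a strain were separate labelings of 1 pool, their spread, and every p-value below, covers labeling, hybridization and scanning but not differences between cultures.

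In the ds-cDNA method an oligo(dT) primer starts the first strand on the poly(A) tail, a second strand is made, and Klenow polymerase then copies both strands from Cy3-labeled random nonamers. Many of the largest differences between the strains lay in the pleiotropic drug resistance network of yeast. In that network the zinc-cluster activators Pdr1 and Pdr3 bind promoters of ABC transporters, which pump drugs, steroids and lipids out of the cell, and of enzymes that remodel membrane lipids. Hexose transporters, which carry glucose and related sugars into the cell, are by contrast set mainly by glucose sensing and repression.

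Values are log2 intensities per gene, fold-changes are EPY330/EPY338, and 99% and 95% confidence stand for an adjusted p under 0.01 and 0.05. Array values ran from 7.25 to 15.86, the array medians lay between 10.09 and 10.12, and the median SD of a gene over replicate arrays was 0.112. The galactose-induced gene GAL1 lay between 14.42 and 14.78 on all 6 arrays. Of the mating-type genes, the α-factor gene MF(ALPHA)1 and the α-agglutinin gene SAG1 read between 8.36 and 13.26, and the a-cell genes MFA1, MFA2, STE2, STE6 and BAR1 read between 7.55 and 7.97 in both strains. Of 6 auxotrophic marker genes, MET17 (MET15) was higher in EPY330 by 0.70 ± 0.07 on the log2 scale (SE, from 3 arrays per strain as for every SE below, adjusted p = 0.00332), and HIS3, LEU2, URA3, TRP1 and ADE2 were not called.

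At 95% confidence 363 of 5739 genes (6.33%) differed between the strains. In EPY330 216 of these (3.76% of all genes) were higher and 147 (2.56%) were lower. At 99% confidence 103 genes (1.79%) differed, 76 higher and 27 lower in EPY330. The rises were the larger changes, since 35 genes rose and 3 fell by more than 2-fold, all of them called at 95% confidence. The median fold-change was 1.43 among the genes called higher and 0.738 among those called lower, and the median log2 fold-change of all genes was 0.00. The arrays of the strains did not overlap for any of the 363 called genes, and they did not overlap for 1675 of all genes (29.2%). The number of calls depended on each array. It was 189, 166 and 210 without EPY330 replicate 1, 2 or 3 and 211, 176 and 172 without EPY338 replicate 1, 2 or 3. All 103 genes called at 99% confidence stayed past 95% confidence whichever array was left out, as did 119 of the 363 genes and 37 of the 38 genes above 2-fold. By the methods' t-test 32 of these 38 stayed called, all but PDR3, PDR5, YOR338W, YNL134C, FIT2 and FIT3.

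**Figure D1:**
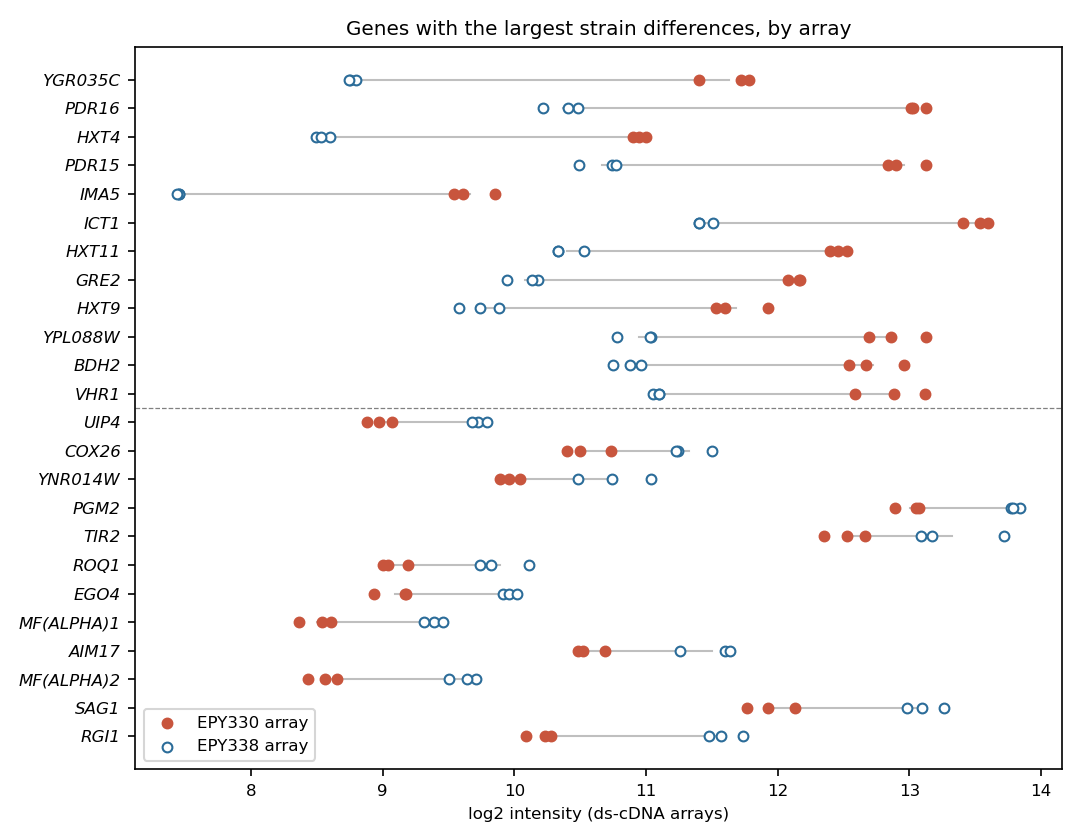
Log2 intensity on each ds-cDNA array (filled points, EPY330; open points, EPY338) of the 12 genes that rose most in EPY330, above the dashed line, and the 12 that fell most, below it. Grey lines join the strain means. In YGR035C the EPY330 arrays lie at 11.40 or above and the EPY338 arrays at 8.80 or below, and no gene shown has overlapping arrays.

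The Pdr1/Pdr3 regulon was the list with the most genes that rose. Of its 22 listed members 20 were called higher in EPY330 and none lower, against 3.76% of all genes called higher. All EPY330 arrays lay above all EPY338 arrays for each of the 22, and for 864 of all 5739 genes. The list median was 1.36 on the log2 scale, against 0.00 over all genes, and 15 of the 35 genes that rose more than 2-fold belonged to it. This list was chosen with earlier results of these data known.

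Of the regulators, PDR3, which encodes one of the 2 activators and is itself a target of the network, read 10.05, 10.29 and 10.53 on the EPY330 arrays and 9.27, 9.17 and 9.27 on the EPY338 arrays. Its fold-change was 2.07 (log2 1.05 ± 0.12, SE, adjusted p = 0.00607). PDR1 read 10.13, 10.02 and 10.06 in EPY330 and 9.87, 9.61 and 9.67 in EPY338, a log2 difference of 0.36 ± 0.08 that just missed 95% confidence (adjusted p = 0.0554). For both paralogous activators all EPY330 arrays lay above all EPY338 arrays. The call of PDR3 was lost by the methods' t-test (adjusted p = 0.0622), and the difference between the rises of PDR3 and PDR1 was not tested.

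Among the pumps, PDR15, an ABC transporter close to Pdr5, read 12.84, 12.90 and 13.13 in EPY330 and 10.74, 10.77 and 10.49 in EPY338. The 4.90-fold rise (log2 2.29 ± 0.11, adjusted p = 0.000181) was the largest of the ABC transporter genes. SNQ2, a pump for mutagens and other cations, read 13.26, 13.55 and 13.24 against 11.67, 11.80 and 11.85 and rose 2.98-fold (log2 1.58 ± 0.10, adjusted p = 0.000652). PDR5, the major drug pump of yeast, read 14.43, 14.61 and 14.07 against 12.73, 13.07 and 13.06, a 2.67-fold rise (log2 1.42 ± 0.16, adjusted p = 0.00581). The EPY330 and EPY338 arrays of these 3 pump genes did not overlap, and the call of PDR5 was lost by the methods' t-test (adjusted p = 0.0623). YOR1, an oligomycin pump, rose 1.90-fold, and PDR10 read between 9.86 and 10.05 against 9.53 to 9.68, a rise of 1.27-fold whose call (adjusted p = 0.0459) was lost without any 1 of the 6 arrays (adjusted p up to 0.127). The polyamine exporter TPO1 rose 1.91-fold (adjusted p = 0.00421).

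Lipid genes of the network rose as well. PDR16, a phosphatidylinositol transfer protein, read 13.01, 13.13 and 13.03 in EPY330 and 10.48, 10.22 and 10.41 in EPY338. Its fold-change of 6.43 (log2 2.69 ± 0.08, adjusted p = 4.45e-05) was the second largest of all genes. ICT1, a lysophosphatidic acid acyltransferase, read 13.60, 13.54 and 13.41 against 11.40, 11.40 and 11.51 and rose 4.23-fold (adjusted p = 5.97e-05). IPT1, which makes the last of the complex sphingolipids, rose 2.48-fold (adjusted p = 0.00126), and RTA1, a membrane protein of 7-aminocholesterol resistance, 1.94-fold (adjusted p = 0.00165). RSB1, an exporter of sphingoid bases, rose 1.49-fold (adjusted p = 0.0373). The call of RSB1 was kept without EPY338 replicate 1 and lost without each of the other arrays (adjusted p up to 0.109).

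The largest rise of all genes was that of YGR035C, whose product has no known function. It read 11.72, 11.78 and 11.40 in EPY330 and 8.75, 8.80 and 8.74 in EPY338, a 7.31-fold rise (log2 2.87 ± 0.10, adjusted p = 6.40e-05). GRE2, a methylglyoxal reductase, read 12.08, 12.16 and 12.17 against 10.18, 9.94 and 10.13 and rose 4.15-fold (adjusted p = 6.46e-05). YPL088W, a putative aryl-alcohol dehydrogenase, read 13.13, 12.69 and 12.86 against 11.04, 11.03 and 10.78 and rose 3.86-fold. BDH2, a paralog of butanediol dehydrogenase, read 12.54, 12.67 and 12.96 against 10.96, 10.75 and 10.88 and rose 3.64-fold. These 3 oxidoreductase genes had no overlap between strains. CIS1 (YLR346C), which acts when protein import into mitochondria is blocked, read 8.63, 8.54 and 8.51 against 7.54, 7.57 and 7.53, a rise of at least 2.02-fold (log2 1.01 ± 0.05, adjusted p = 0.000308). Its EPY338 values lay at or below those of the a-cell genes, near the low end of the array scale. LAF1 (YMR102C) rose 2.01-fold, and YLL056C, with arrays between 8.45 and 8.73 against 8.22 and 8.41, was not called (adjusted p = 0.156).

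Of 19 efflux genes outside the list 3 were called higher (15.8%, against 3.76% of all genes) and none lower. TPO4, a polyamine exporter, read 13.11, 13.11 and 13.18 in EPY330 and 11.53, 11.54 and 11.53 in EPY338. Its 3.03-fold rise (log2 1.60 ± 0.05, adjusted p = 4.45e-05) had close replicates in both strains. PDR12, the War1-controlled exporter of weak acids such as sorbate, read 13.38, 13.30 and 13.30 against 12.27, 12.42 and 12.32 and rose 1.98-fold (adjusted p = 0.000652). AQR1, a transporter of short-chain acids, rose 1.60-fold (adjusted p = 0.00807), a call lost by the methods' t-test (adjusted p = 0.0601). The median of these 19 genes was 0.06 on the log2 scale.

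**Figure D2:**
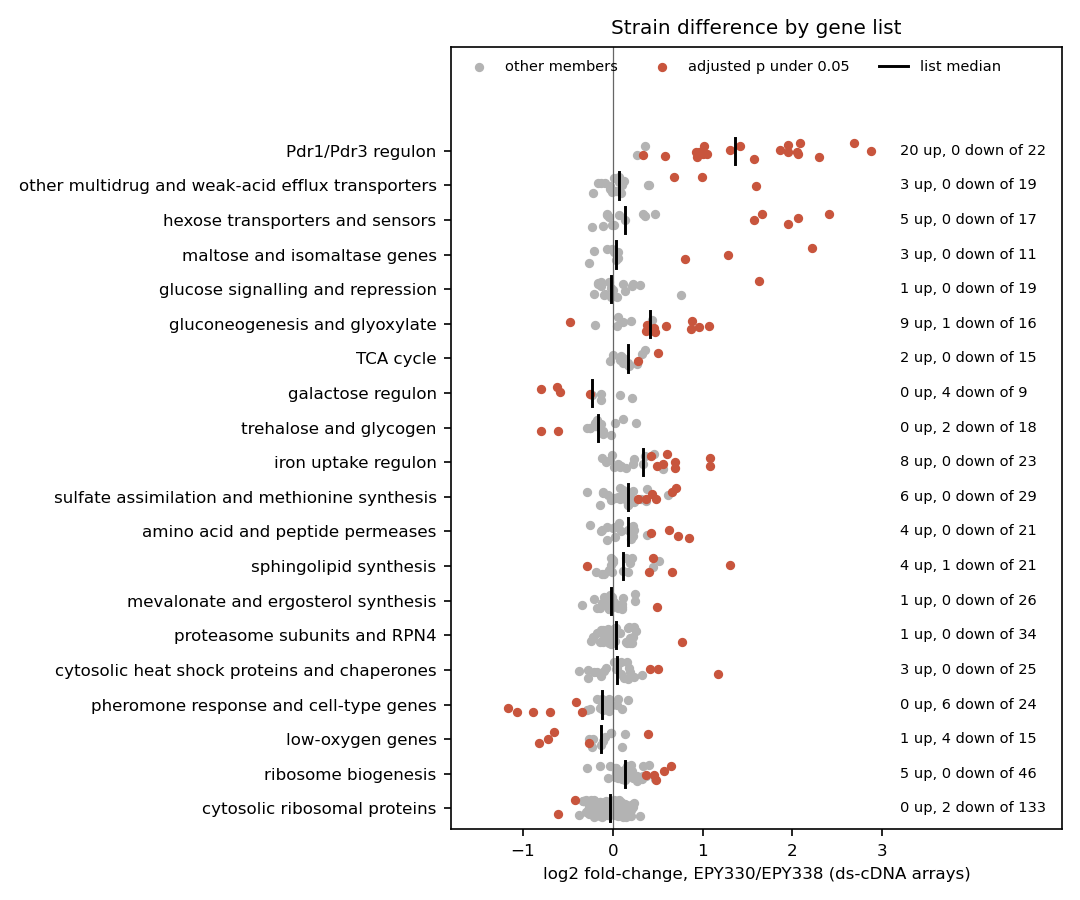
Log2 fold-change EPY330/EPY338 on the ds-cDNA arrays of each measured gene in 20 lists (points, coloured where adjusted p was under 0.05, with vertical scatter only to separate them) and the median of each list (bars). The Pdr1/Pdr3 list, with 20 of 22 genes called higher, has a median of 1.36, and the 133 cytosolic ribosomal protein genes have a median of -0.03.

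Sugar transport gave the next group of large rises. Of 17 hexose transporter and sensor genes 5 were called higher in EPY330 (29.4%, against 3.76% of all genes) and none lower, and the list median was 0.13. HXT4, a high-affinity glucose transporter, read 11.00, 10.95 and 10.90 in EPY330 and 8.49, 8.60 and 8.53 in EPY338. Its fold-change of 5.31 (log2 2.41 ± 0.06, adjusted p = 2.19e-05) was the third largest of all genes and had the lowest adjusted p. HXT3, a low-affinity transporter, read 14.66, 14.68 and 14.49 against 13.16, 12.71 and 12.98 and rose 3.17-fold (adjusted p = 0.00119). HXT8 read 9.59, 9.52 and 9.79 against 8.07, 8.13 and 8.01, a rise of 2.96-fold (adjusted p = 0.000308). The remaining pair, HXT9 and HXT11, are also Pdr1/Pdr3 targets. HXT11 read 12.53, 12.40 and 12.46 against 10.33, 10.53 and 10.33 and rose 4.19-fold (log2 2.07 ± 0.08, adjusted p = 6.40e-05). HXT9 read 11.60, 11.93 and 11.53 against 9.74, 9.88 and 9.58 and rose 3.87-fold (log2 1.95 ± 0.13, adjusted p = 0.000700). HXT9 and HXT11 are near-identical in sequence, and their probes cannot be taken to tell them apart.

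None of the other 12 genes was called. HXT7 read 15.15, 15.21 and 14.91 in EPY330 and 14.34, 14.87 and 14.66 in EPY338, without overlap, but its difference of 0.47 ± 0.15 was not called (adjusted p = 0.123). The arrays of HXT1, HXT2, HXT5, HXT10, HXT13, HXT14, HXT15, HXT17 and GAL2 overlapped between strains, with log2 differences from -0.24 (GAL2) to 0.35 (HXT2). The glucose sensor genes RGT2 (0.34, adjusted p = 0.0954) and SNF3 (-0.07, adjusted p = 0.742) were not called.

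**Figure D3:**
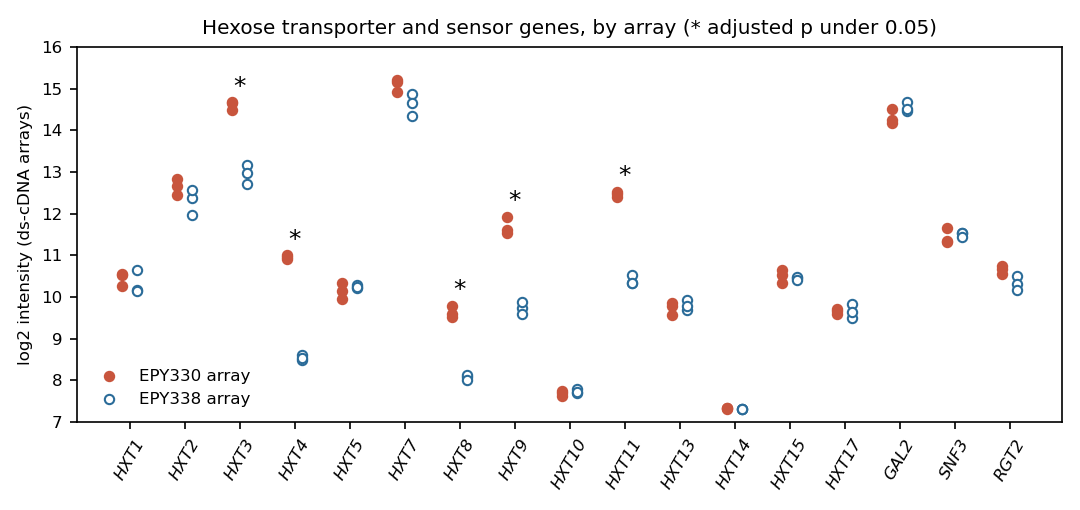
Log2 intensity on the 6 ds-cDNA arrays of the 17 hexose transporter and sensor genes (filled points, EPY330; open points, EPY338; asterisk, adjusted p under 0.05). The strains are set apart in HXT3, HXT4, HXT8, HXT9 and HXT11, and the arrays of HXT1, HXT2 and HXT5 overlap.

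Of 19 genes of glucose signalling, 1 was called, higher in EPY330 (5.26%, against 3.76% of all genes), a share near that of all genes. MIG2, a glucose-induced repressor that works beside Mig1, read 13.34, 13.29 and 13.35 in EPY330 and 11.78, 11.70 and 11.61 in EPY338, a 3.10-fold rise (log2 1.63 ± 0.06, adjusted p = 6.40e-05). MIG1 (-0.09), MIG3 (0.00), RGT1 (-0.04), MTH1 (0.14) and STD1 (-0.02) had overlapping arrays. SOK2, a transcription factor of the protein kinase A pathway, read 12.47, 12.57 and 12.57 against 12.08, 11.90 and 11.36. Its log2 difference of 0.76 ± 0.18 was not called (adjusted p = 0.0591), and it passed 95% confidence without EPY338 replicate 1 (adjusted p = 0.0483) or EPY338 replicate 3 (adjusted p = 0.0375).

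Some isomaltases, which split α-1,6 bonds of sugars, also rose. In the maltose and isomaltase list 3 of 11 genes were called higher (27.3%, against 3.76%). IMA5 read 9.61, 9.54 and 9.85 in EPY330 and 7.45, 7.45 and 7.44 in EPY338, a rise of at least 4.65-fold (log2 2.22 ± 0.09, adjusted p = 6.65e-05). Its EPY338 values lay below those of the a-cell genes, so this fold-change is a lower limit. IMA3 read 12.80, 12.68 and 12.64 against 11.24, 11.43 and 11.61 and rose 2.43-fold (adjusted p = 0.00152). IMA2 read 12.38, 12.30 and 12.15 against 11.24, 11.49 and 11.69, a 1.74-fold rise (adjusted p = 0.0174) that was lost without EPY330 replicate 1 (adjusted p = 0.0623), EPY330 replicate 2 (0.0677) or EPY338 replicate 2 (0.0635). IMA2 and IMA3 are close paralogs, and cross-hybridization between them was not tested. The regulators MAL13 and MAL33 were not called.

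Genes of gluconeogenesis and the glyoxylate cycle, which build sugar from C2 and C3 compounds and are repressed by glucose, were the next group. Of 16 measured genes 9 were called higher (56.2%, against 3.76% of all genes), 1 was called lower and 6 were not called, with a median of 0.41. MLS1, malate synthase, read 10.93, 10.81 and 11.02 in EPY330 and 9.73, 9.92 and 9.89 in EPY338, a 2.10-fold rise (log2 1.07 ± 0.08, adjusted p = 0.00126). IDP2, the cytosolic NADP-dependent isocitrate dehydrogenase, read 10.66, 10.68 and 10.67 against 9.87, 9.54 and 9.72 and rose 1.94-fold. SFC1, the mitochondrial succinate-fumarate carrier, rose 1.85-fold, and PCK1, phosphoenolpyruvate carboxykinase, 1.83-fold. ICL1, isocitrate lyase, rose 1.50-fold and FBP1, fructose-1,6-bisphosphatase, at least 1.38-fold. These 6 enzymes and carriers were called at 99% confidence (adjusted p between 0.00126 and 0.00558). The EPY338 values of FBP1, 7.69, 7.74 and 7.71, lay among those of the a-cell genes, so its fold-change is a lower limit. The other member called, in the opposite direction, was REG2, a regulator of protein phosphatase 1, which read 8.81, 8.81 and 8.82 against 9.34, 9.30 and 9.23 (log2 -0.47 ± 0.05, adjusted p = 0.00520). JEN1, YAT1 and ATO3, with rises of 0.37 to 0.47, supplied the remaining calls. The count of members called higher was 6 without EPY330 replicate 1 or 3 or without EPY338 replicate 2 or 3, and also 6 by the methods' t-test and with the replicate block. JEN1 and YAT1 were called only without EPY330 replicate 2, and ATO3 only without EPY338 replicate 1. The regulators CAT8 (-0.21), ADR1 (0.23), SIP4 (0.05) and HAP4 (0.11) were not called.

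Some iron uptake genes were higher in EPY330. In this regulon, which the activators Aft1 and Aft2 switch on in iron scarcity, 8 of 23 genes were called higher (34.8%, against 3.76% of all genes) and none lower, with a median of 0.33. The count was 1 by the methods' t-test and 4 with the replicate block. By that t-test HMX1 stayed called (adjusted p = 0.0495). FIT2 (0.0566), TIS11 (0.0599), FET3 (0.0628), ARN2 (0.0854), FIT3 (0.0857), CCC2 (0.0959) and FRE1 (0.122) lost their calls by it (adjusted p in parentheses). FIT2, a cell wall mannoprotein that holds siderophore iron, read 11.42, 11.75 and 11.40 in EPY330 and 10.32, 10.42 and 10.59 in EPY338, a 2.12-fold rise (log2 1.08 ± 0.12, adjusted p = 0.00520). FIT3, its neighbor and homolog, read 14.12, 14.05 and 13.61 against 13.02, 12.70 and 12.81. The 2.12-fold rise of FIT3 (adjusted p = 0.0130) was not called without EPY330 replicate 2 (0.0520), EPY338 replicate 2 (0.0523) or EPY338 replicate 3 (0.0569). TIS11, which degrades mRNAs of iron-using proteins, rose 1.62-fold (adjusted p = 0.00792) and FET3, the multicopper ferroxidase, 1.52-fold (adjusted p = 0.0106). ARN2, CCC2, FRE1 and HMX1 were the other members called, with rises of 0.43 to 0.69. The count fell to 5 without EPY330 replicate 2 or EPY338 replicate 2 and to 4 without EPY338 replicate 3. ARN2 was lost without EPY330 replicate 1 or 2 or EPY338 replicate 1, HMX1 without EPY338 replicate 3, CCC2 without all but EPY330 replicate 3 and FRE1 without any 1 array. The activator genes AFT1 (0.56, adjusted p = 0.0586) and AFT2 (-0.12, adjusted p = 0.306) were not called.

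Sulfur and amino acid genes gave scattered rises. Of 29 genes of sulfate assimilation and methionine synthesis 6 were called higher (20.7%, against 3.76%) and none lower (median 0.16). This count was 3 by the methods' t-test and 2 with the replicate block. MET17, O-acetylhomoserine sulfhydrylase, read 11.74, 11.70 and 11.74 in EPY330 and 10.94, 10.98 and 11.15 in EPY338, a 1.63-fold rise. MUP1, the high-affinity methionine permease, rose 1.58-fold (adjusted p = 0.00581). The calls of MET8 and MET14 were lost without any 1 array, MET3 was called only without EPY330 replicate 1 and MET10 only without EPY338 replicate 2. The list count was 2 without EPY330 replicate 2 or 3 or EPY338 replicate 3, 3 without EPY338 replicate 1 or 2 and 4 without EPY330 replicate 1. Among 21 genes of amino acid and peptide permeases and their regulators 4 were higher (19%, against 3.76% of all genes). This count was 2 by the methods' t-test, 1 with the replicate block and 2 without EPY330 replicate 2. The permease genes called were PTR2, BAP3 and PUT4. With the replicate block they lost their calls (adjusted p = 0.0784, 0.0711 and 0.0705), and the gene kept was STP4 (0.0153). STP4, a zinc-finger protein of the Stp family and not a permease, had the largest rise of the list. It read 13.82, 13.83 and 13.79 against 13.03, 13.01 and 12.86 (1.80-fold, adjusted p = 0.00126). Of 55 genes of amino acid synthesis 2 were higher, CPA1 (1.62-fold) and LYS20 (1.43-fold), a share near that of all genes.

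Regulators and stress genes of further lists were also called. RPN4, the activator of proteasome genes and a Pdr1/Pdr3 target, read 11.92, 11.96 and 11.69 in EPY330 and 10.97, 11.05 and 11.25 in EPY338. The call of its 1.70-fold rise (log2 0.77 ± 0.11, adjusted p = 0.0119) was lost without EPY338 replicate 2 (0.0523), by the methods' t-test (0.0751) and with the replicate block (0.0708). None of the 33 proteasome subunit and assembly genes in its list was called. HSP31, a methylglyoxalase of the DJ-1 family, read 11.15, 11.00 and 11.16 against 10.00, 9.80 and 9.98 and rose 2.26-fold (adjusted p = 0.000812). Of 25 cytosolic heat shock genes it was 1 of 3 called, all higher (12%, against 3.76% of all genes). It was the only one kept whichever array was left out (1 gene called without each array other than EPY338 replicate 3, and 2 without that array). The heat shock count was 1 by the methods' t-test and 1 with the replicate block. HSF1 was not called. OYE3, an old yellow enzyme, rose 1.92-fold (adjusted p = 0.000652) in an antioxidant list with 3 of 20 genes higher (15%, against 3.76% of all genes). In that list 1 gene was lower (5%, against 2.56% of all genes), the glutathione reductase gene GLR1 (log2 -0.54). The call of GLR1 was lost by the methods' t-test (adjusted p = 0.0587). The count of higher genes in that list was 2 without EPY330 replicate 1 or 2 and 1 without each of the other arrays. It was also 1 by the methods' t-test and with the replicate block.

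VHR1, the activator of biotin uptake genes, read 12.88, 13.12 and 12.59 in EPY330 and 11.05, 11.10 and 11.10 in EPY338, a 3.44-fold rise (log2 1.78 ± 0.13, adjusted p = 0.00119). FMP48, a putative mitochondrial protein kinase, read 10.33, 10.66 and 10.50 against 8.85, 8.80 and 8.76 and rose 3.24-fold (adjusted p = 0.000308). COM2 (YER130C), a zinc-finger factor of the sulfite response, read 11.65, 11.81 and 11.90 against 10.59, 10.40 and 10.58, a rise of 2.40-fold (adjusted p = 0.000954). The remaining genes above 2-fold, named after their values were seen, were YOR338W (2.48-fold), BSC1 (2.34-fold), YDL038C (2.31-fold), the aldehyde reductase gene YNL134C (2.21-fold), ICY1 (2.11-fold) and YAP5 (2.08-fold), an iron-responsive bZIP factor. YDL038C has no entry in the RefSeq R64 table and is counted here under its array name. Across all lists, 5 of 55 regulators fixed as such were higher in EPY330 (PDR3, MIG2, RPN4, STP4 and ROX1) and 1 was lower (GAL80). Of all genes 3.76% were called higher and 2.56% lower. ROX1 and GAL80 lost their calls without any 1 array. PDR3, RPN4 and ROX1 lost theirs by the methods' t-test (adjusted p = 0.0622, 0.0751 and 0.101).

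Fewer and smaller changes ran the other way. RGI1, a gene induced in respiratory growth, had the largest fall in EPY330, reading 10.23, 10.28 and 10.09 against 11.48, 11.57 and 11.74 in EPY338. Its fold-change was 0.379 (log2 -1.40 ± 0.09, adjusted p = 0.000652). Its paralog RGI2, named after its value was seen, was lower by a log2 fold-change of -0.56 (adjusted p = 0.0306), a call lost without any 1 of the arrays (adjusted p up to 0.0986).

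Some cell-type and pheromone genes were lower in EPY330. Of 24 genes of this list 6 were called lower (25%, against 2.56% of all genes), none higher and 18 were not called, with a median of -0.12. SAG1, the α-agglutinin of mating cells, read 11.77, 11.93 and 12.13 in EPY330 and 13.26, 13.10 and 12.98 in EPY338, a fold-change of 0.446 (log2 -1.17 ± 0.11, adjusted p = 0.00332). MF(ALPHA)2, the minor α-factor gene, read 8.43, 8.65 and 8.56 against 9.71, 9.64 and 9.50, a fold-change of 0.478 (adjusted p = 0.00147). MF(ALPHA)1, the major one, read 8.61, 8.54 and 8.36 against 9.39, 9.31 and 9.46, a fold-change of 0.541 (adjusted p = 0.00274). All these 3 genes encode products of α cells. AGA1 (log2 -0.70), FUS1 (-0.41) and SST2 (-0.34) made up the 6. AGA1 and SST2 were lost without any 1 array, and FUS1 was called only without EPY338 replicate 2. The list count was 4 without EPY338 replicate 2, 3 without each of the other arrays, 4 by the methods' t-test and 3 with the replicate block. By that t-test SAG1, MF(ALPHA)2 and MF(ALPHA)1 kept their calls. AGA1, FUS1 and SST2 lost theirs by it (adjusted p = 0.143, 0.0844 and 0.114), so its count of 4 included a gene outside the 6. The pheromone-response factor STE12 was not called (0.17, adjusted p = 0.252).

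The galactose genes gave 4 of 9 members lower in EPY330 (44.4%, against 2.56% of all genes) and none higher (median -0.24), and 2 with the replicate block. PGM2, the major phosphoglucomutase, read 12.89, 13.07 and 13.05 in EPY330 and 13.77, 13.84 and 13.79 in EPY338, a fold-change of 0.575 (log2 -0.80 ± 0.07, adjusted p = 0.00166). GCY1, a glycerol dehydrogenase, read 12.54, 12.59 and 12.68 against 13.19, 13.20 and 13.29, a fold-change of 0.648 (adjusted p = 0.00332). These 2 calls were kept without each array. GAL7 (log2 -0.59, adjusted p = 0.0376) and the repressor gene GAL80 (adjusted p = 0.0382) lost their calls without each array, other than GAL7 without EPY338 replicate 3 (adjusted p up to 0.106 and 0.108). The arrays of GAL1, GAL2, GAL3, GAL4 and GAL10 overlapped between strains.

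In the low-oxygen list 4 of 15 genes were lower (26.7%, against 2.56% of all genes) and 1 was higher (6.67%, against 3.76%). The count of lower genes was 2 without EPY338 replicate 1 or 3 and 1 without each of the other arrays. It was 1 with the replicate block. By the methods' t-test it was 2, COX5B (adjusted p = 0.0482) and ANB1 (0.0484). ANB1 was not among the 4, and its arrays, from 7.34 to 7.46, lay near the low end of the scale. COX5B, the hypoxic form of cytochrome c oxidase subunit 5, read 8.92, 8.75 and 8.74 in EPY330 and 9.44, 9.52 and 9.62 in EPY338 (log2 -0.73 ± 0.08, adjusted p = 0.00516). The repressor of these genes, ROX1, was the higher one (log2 0.39, adjusted p = 0.0312), and CYC7 (-0.65), TIR2 (-0.82) and AAC3 (-0.27) were the other lower ones. ROX1, TIR2 and AAC3 lost their calls without any 1 array, and CYC7 kept its call only without EPY338 replicate 1 or 3. By the methods' t-test ROX1 (0.101), CYC7 (0.122), TIR2 (0.163) and AAC3 (0.0593) lost their calls (adjusted p in parentheses). CYC1, the aerobic partner of CYC7, read 10.26, 10.22 and 10.12 against 9.48, 9.33 and 9.61 and rose 1.66-fold (adjusted p = 0.00683). The call of CYC1 was lost by the methods' t-test (adjusted p = 0.0561). It was the only one of 33 nuclear respiratory chain and ATP synthase genes called (3.03%, against 3.76% of all genes called higher).

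The other large falls were those of AIM17, a mitochondrial protein (fold-change 0.521, adjusted p = 0.00807), EGO4 (0.547, adjusted p = 0.00332), the stress-induced ROQ1 (0.568, adjusted p = 0.0113), COX26, a respiratory supercomplex subunit (0.582, adjusted p = 0.0143), and UIP4, a nuclear envelope protein (0.591, adjusted p = 0.00255). YNR014W (0.577, adjusted p = 0.0268) was called without EPY338 replicate 2 or 3 and not without the other arrays, and COX26 was lost without EPY330 replicate 2 (adjusted p = 0.0578). By the methods' t-test AIM17 (adjusted p = 0.0677), ROQ1 (0.0751), COX26 (0.0854) and YNR014W (0.12) lost their calls. Of the DNA damage list, HUG1, an inhibitor of ribonucleotide reductase, was lower (7.81, 7.94 and 7.72 against 8.46, 8.41 and 8.53, adjusted p = 0.00636). RNR1, the large subunit of that enzyme, was higher by 0.76 (adjusted p = 0.0253), a call kept only without EPY330 replicate 1 or 3. SPG1, a stationary-phase gene, read 8.02, 7.88 and 7.91 against 8.56, 8.47 and 8.47 (log2 -0.56 ± 0.06, adjusted p = 0.00520).

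Further functions were described by their counts. In mevalonate and ergosterol synthesis 1 of 26 genes was called, higher (3.85%, against 3.76% of all genes). It was the squalene synthase gene ERG9 (log2 0.49 ± 0.09, adjusted p = 0.0258), a call that was lost without any 1 array (adjusted p up to 0.0805). Of 133 cytosolic ribosomal protein genes 2 were called, both lower (1.5%), and of 67 mitochondrial ones 1, lower (1.49%), against 2.56% of all genes. Of 24 glycolytic and fermentation genes 1 was called, higher (4.17%, against 3.76% of all genes). These shares lay near or below those of all genes. Of 46 ribosome biogenesis genes 5 were called higher (10.9%, against 3.76% of all genes) and 42 had positive differences, with a median of 0.14, but the count was 1 by the methods' t-test and 0 with the replicate block, and the count was 4, 2 and 3 without EPY330 replicate 1, 2 or 3 and 1, 2 and 2 without EPY338 replicate 1, 2 or 3. Of 21 seripauperin genes 20 had negative differences (median -0.20) and 1, PAU7, was called lower (4.76%, against 2.56% of all genes). Only EPY338 replicate 1 could be left out without losing that call. These genes are near-identical, and their probes may read several of them at once. No histone, zinc, COS or mitochondrially encoded gene was called (0 of 10, 8, 11 and 8). RNH201 (0.05, adjusted p = 0.730) and RPL37A (-0.14, adjusted p = 0.603), the reference genes of the study, were not called, nor was the transcription factor gene ZNF1 (YFL052W, -0.25, adjusted p = 0.121). YPI1, a regulator of protein phosphatase 1, was called lower by a small margin (log2 -0.29 ± 0.05, adjusted p = 0.0194), which was lost without any 1 array (adjusted p up to 0.0725).

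The same RNA had been labeled by both single-stranded methods, so the fold-change of each gene could be compared between labelings. At 95% confidence 22.4% of all genes differed between strains with direct random and 9.08% with indirect targets, against 6.33% with ds-cDNA. An interaction test over all 18 arrays found a fold-change with ds-cDNA targets different from direct random in 33 genes (0.575%), 15 with a higher and 18 with a lower log2 value with ds-cDNA. Against indirect targets 40 genes (0.697%) differed, 19 higher and 21 lower. The largest measured difference was that of CIS1, whose log2 fold-change was 1.01 with ds-cDNA, 2.94 with direct random and 2.79 with indirect targets (adjusted p = 5.04e-10 and 1.86e-09 for the differences). Since its EPY338 level with ds-cDNA lay near the low end of the scale, 1.01 is a lower limit and the difference between labelings may be overstated. HXT9 measured 1.95 with ds-cDNA, 3.73 with direct random and 3.07 with indirect targets, and HXT11 2.07, 3.69 and 3.28. MIG2 measured 1.63, 2.56 and 2.76 and HXT3 1.66, 2.55 and 2.88 in the same order. The rises of RSB1 with direct random and indirect targets are lower limits, with EPY338 means of 7.39 and 7.44. RSB1 (0.58, 1.51 and 1.48), ICY1 (1.07, 1.91 and 1.99) and YGR035C (2.87, 3.66 and 3.48) also had smaller rises with ds-cDNA. So did 16 of the 22 Pdr1/Pdr3 genes against direct random and 17 against indirect targets by their estimates, of which 5 and 6 passed the test.

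Other genes had larger changes with ds-cDNA. HXT8 measured 1.57 with ds-cDNA, 0.47 with direct random and 0.41 with indirect targets (adjusted p = 1.83e-06 and 2.35e-06 for the differences). Its mean levels with those targets, 7.40 to 7.86 with direct random and 7.45 to 7.87 with indirect, lay near the low end of the scale, so its fold-changes there are lower limits. RGI1 measured -1.40 with ds-cDNA and -0.79 with direct random targets (adjusted p = 0.00651). Falls that were smaller with ds-cDNA included MF(ALPHA)2 (-1.07, -2.10 and -2.18), HUG1 (-0.64, -1.58 and -1.88) and SPG1 (-0.56, -1.29 and -1.38). The EPY330 levels of HUG1 and SPG1 with ds-cDNA were also near the a-cell genes, so the sizes of their ds-cDNA falls are lower limits. ERR3, an enolase-related gene, read 9.02, 8.94 and 8.93 in EPY330 and 9.42, 9.55 and 9.48 in EPY338 with ds-cDNA, a log2 fold-change of -0.52 (adjusted p = 0.00630). With direct random targets it was called in the opposite direction, at 0.65 (adjusted p = 0.000954), and with indirect targets it measured 0.13 (adjusted p = 0.308). Its means with indirect targets, 7.81 in EPY330 and 7.69 in EPY338, lay near the low end of the scale. The large rises of PDR16 (2.69, 2.82 and 2.71), HXT4 (2.41, 2.60 and 2.27), PDR15 (2.29, 2.40 and 2.40) and ICT1 (2.08, 2.04 and 2.21) passed neither interaction test.

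**Figure D4:**
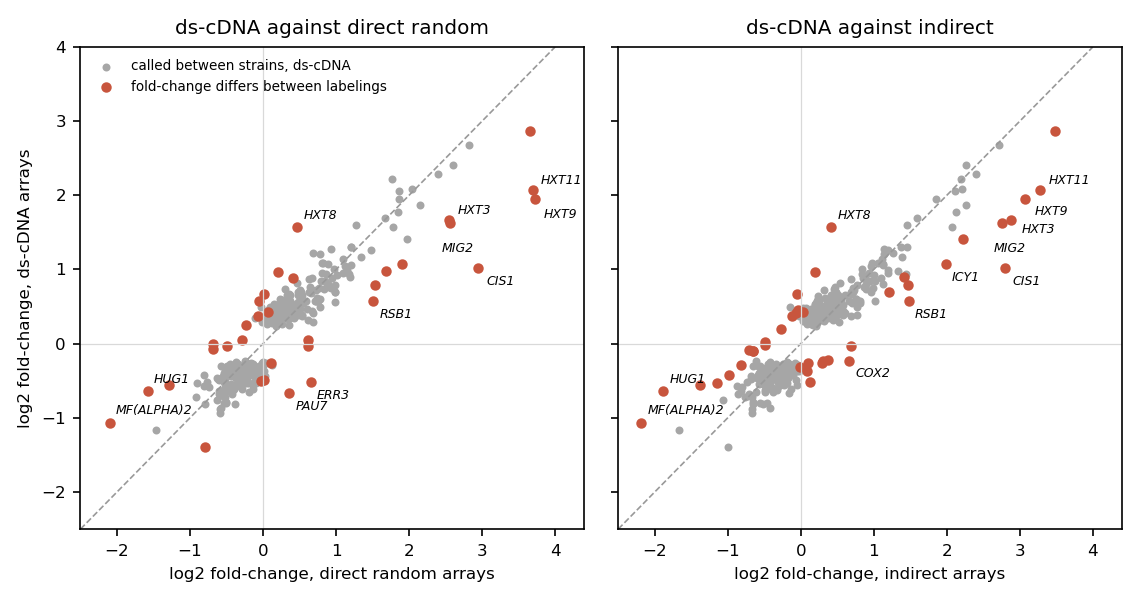
Log2 fold-change EPY330/EPY338 with ds-cDNA targets (vertical axis) against direct random (left) and indirect targets (right, horizontal axes). Grey points are the 363 genes called between strains with ds-cDNA, coloured points the 33 and 40 genes whose fold-change differed between the labelings, and the dashed line marks equal values. CIS1, at 1.01 with ds-cDNA and 2.94 with direct random targets, lies farthest from the line.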

How the data were processed

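RNA pools of EPY330 and EPY338 were labeled 3 times by each of 3 methods and hybridized to 18 single-color NimbleGen yeast arrays, whose slide positions are not given in the labels used here. The authors read the arrays with NimbleScan and deposited log2 intensities per gene after RMA with quantile normalization in ArrayStar 3.0, which forces like distributions on all arrays. The photomultiplier gain was set for each array. Of 5861 rows 122 had no value, and 5733 of the other 5739 were named from the RefSeq R64 table.

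Strains were compared on the 6 ds-cDNA arrays with limma 3.58.1 (R 4.3.3) and Benjamini-Hochberg adjustment over all 5739 genes. The difference of fold-changes between labelings was tested as an interaction over all 18 arrays. The procedure was tested on simulated data. Alternatives were the methods' t-test, a shared fit, a variance trend, a replicate block, other scalings, a filter on dim genes and leaving out each array. Genes are named as the 12 largest called rises and falls, the called leaders and regulators of 43 lists, and genes the study measured otherwise. A further 37 were named after their values were seen: all other genes above 2-fold, the rest of the Pdr1/Pdr3 list, and genes such as ICL1, FBP1, JEN1, FET3, FUS1, SST2, AAC3 and RGI2. Uncalled list members are also given where a list is described in full. The arrays, genes and lists were chosen with earlier results of these data known. Plots used matplotlib 3.10.9.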

Additional observations from a re-analysis of the deposited data

Results flagged for a closer look

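Each gene below was singled out because an interaction test over the 18 arrays found its log2 fold-change EPY330/EPY338 with ds-cDNA targets different from that with another labeling of the same RNA. Values are the ds-cDNA fold-change minus the other one, on the log2 scale.

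In the drug resistance and sugar genes the difference was mostly negative. CIS1 differed by -1.93 from direct random (adjusted p = 5.04e-10) and by -1.78 from indirect targets (adjusted p = 1.86e-09). HXT9 differed by -1.78 (1.57e-06) and -1.11 (0.000458), and HXT11 by -1.63 (1.57e-06) and -1.21 (6.82e-05). MIG2 differed by -0.93 (0.000228) and -1.12 (2.87e-05), and HXT3 by -0.89 (0.00456) and -1.21 (0.00019). RSB1 differed by -0.93 (0.000647) and -0.90 (0.000819), YGR035C by -0.79 (0.00558) and -0.61 (0.0417), and PDR5 by -0.80 (0.0304) from indirect targets. ICY1 differed by -0.84 (0.001) and -0.91 (0.000402). HXT8 had the opposite sign, 1.10 (1.83e-06) and 1.15 (2.35e-06), and MAL33 differed by 0.34 (0.0204) from direct random targets.

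Genes that were lower in EPY330 gave both signs. MF(ALPHA)2 differed by 1.04 (9.29e-05) and 1.12 (3.9e-05), HUG1 by 0.93 (0.00045) and 1.24 (2.35e-05), and SPG1 by 0.72 (0.00336) and 0.82 (0.000809). ERR3 differed by -1.17 (1.57e-06) and -0.64 (0.00163). RGI1 differed by -0.61 (0.00651) and PAU7 by -1.02 (0.0136), both from direct random targets.

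Smaller rises with changed size were those of ATO3, 0.44 (0.0142) and 0.48 (0.00649), PUT4, 0.35 (0.0335) and 0.38 (0.0171), and SFC1, 0.48 (0.0142) from direct random targets. SSA2 (0.48, 0.0354), NUG1 (0.49, 0.0306) and TIS11 (-0.51, 0.0467) differed from indirect targets. GDH3 differed by 0.76 (0.0384) and 0.77 (0.0347), and YIR018C-A by 0.66 (0.00336) and 0.73 (0.000914). The cause of these differences was not tested. For CIS1, HUG1 and SPG1 with ds-cDNA, at least 1 strain lay near the low end of the scale. This also held for HXT8, HXT9, RSB1, PUT4, ATO3 and YIR018C-A with the other targets. It held for SFC1 with direct random and for ERR3 with indirect targets. The differences of these genes are not exact sizes.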

How the results depend on the processing

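The count of 363 genes at 95% confidence, 216 higher and 147 lower, depended on the estimate of the spread and on the scaling. It was 128 (79 and 49) by the methods' t-test, 115 (85 and 30) with the replicate block, 599 (321 and 278) with a variance trend and 994 (519 and 475) in a fit of all 18 arrays. Leaving out 1 array gave 166 to 211 genes, 111 to 138 higher and 51 to 73 lower. At 99% confidence the count of 103 became 13, 18, 315 and 494 in the same order, 228 without the dimmest 25% of genes and 33 to 54 without 1 array. Median centring gave 394 genes at 95% confidence (211 higher and 183 lower), and quantile normalization of the 6 arrays gave 400 (214 and 186). These scalings changed mainly the count of lower genes. The interaction with direct random targets (33 genes) gave 52 with the trend and 28 to 46 without 1 array. That with indirect targets (40 genes) gave 61 with the trend, 25 without the dim genes, 21 in a fit of 12 arrays and 25 to 52 without 1 array. The cause of these shifts was not tested. Of 146 named genes that were called, 59 were called under every alternative, 69 by the methods' t-test and 79 whichever array was left out, and none changed direction. Of 38 genes above 2-fold, 32 were called under every alternative. Same-numbered arrays of the strains did not deviate together (correlations -0.08, 0.02 and -0.19), so the numbers were not taken to pair arrays. With 3 arrays of 1 RNA pool per strain, differences between cultures could not be measured.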

Other observations

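Some genes next to those above 2-fold were also called higher, and their values are given without explanation. Called in the same direction were 3 of 15 convergent (20%), 5 of 17 divergent (29.4%) and 4 of 41 same-strand neighbors (9.76%). Over all genes 3.76% were called higher and 2.56% lower. The convergent pair FIT2 and FIT3 and the divergent pair HXT8 and IMA5 are themselves above 2-fold. Each gene of a pair was counted as the neighbor of the other, so these counts were fixed by the selection. The convergent and divergent shares therefore cannot be set against those of all genes. LDB7, ATG40, YJL218W and FRE7, beside PDR3, PDR5, HXT9 and GRE2, were called higher with all 3 labelings. GDH3, beside BDH2, was higher in EPY330 by a log2 fold-change of 0.97 with ds-cDNA, 0.21 with direct random and 0.20 with indirect targets. YIR018C-A, convergent with YAP5, was higher by 0.67 with ds-cDNA and measured 0.01 and -0.06 with the other targets, where both strains read 7.39 to 7.46, near the low end of the scale, so that a change could not be seen. Its ds-cDNA call was lost without EPY330 replicate 2 or EPY338 replicate 2 or 3 (adjusted p up to 0.0562). The neighboring genes BSC1 and PRM7 were higher by 1.22 and 0.84 with ds-cDNA. YDL038C, a name without an entry in the RefSeq R64 table, was higher by 1.21. Whether YDL038C is a gene apart from these neighbors was not tested. These genes were chosen after their values were seen.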
